A study of Mus musculus with 16 samples.

Results

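The 9 canonical WNT feedback target genes Axin2, Lef1, Tcf7, Nkd1, Nkd2, Notum, Apcdd1, Sp5 and Tnfrsf19 were followed one by one in bulk RNA sequencing of mouse adrenal glands. They were found by their Ensembl identifiers through the GENCODE M21 annotation and are 9 of the 54838 genes counted, 34196 of which were counted at least once in some library. All 9 passed the filter on low counts that left 18214 genes for testing, and the lowest count of a member in any library was 33. The glands came from animals of 4 weeks, whose strain is given as a mixed genetic background. The 16 libraries were taken as 1 animal each. They formed 4 groups of 4: female control, female with a gain of function (GOF) of Rspo1, male control and male Rspo1 GOF. All 4 groups had the same age and background and differed by sex and genotype alone in the labels. The construct behind the GOF, the promoter or Cre that drives it, the cells that express it and the alleles carried by the controls are not given in the sources used here. Rspo1 in each library served as the reference.

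Canonical WNT signalling stabilises β-catenin, which enters the nucleus and acts there with the TCF and LEF factors on target genes. R-spondin 1, the secreted product of Rspo1, binds LGR receptors and keeps the ubiquitin ligases ZNRF3 and RNF43 from removing Frizzled receptors, so that more WNT signal is received. Among the targets are genes that act back on the pathway at each step: AXIN2 and the NKD proteins inside the cell, NOTUM and APCDD1 outside it, and the nuclear factors LEF1, TCF7 and SP5. In the adrenal cortex, canonical WNT signalling is known to be strongest in the outermost zone beneath the capsule.

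Library totals lay between 31275146 and 43003968 counts. Levels below are CPM, counts per 1e6 counts of the tested genes after TMM scaling, unless called FPKM. The summed level of 6 genes of the adrenal cortex was 28930 to 46090 CPM in the 16 libraries. Kidney and liver transcripts were found in 3 control libraries. A sum of 10 kidney genes reached 1099 CPM in female control 1 and 180.9 in female control 3 against 2.66 or less elsewhere, and a sum of 9 liver genes reached 8593 CPM in male control 2 against 58.9 or less elsewhere. The member counts are therefore also given without these 3 libraries.

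Rspo1 was high in every GOF library. In females it measured 40.6, 3.196, 9.73 and 5.87 CPM in controls 1 to 4, and 532, 508, 438 and 354 CPM in GOF 1 to 4. In males it measured 24.7, 48.3, 19.4 and 29.6 CPM in controls and 770, 942, 972 and 535 CPM in GOF. The control and GOF ranges did not overlap in either sex, and each male GOF library lay above each female GOF library, male GOF 4 only just. The highest value among the female controls was that of female control 1, which also held the kidney transcripts; whether these carried Rspo1 was not tested.

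The 9 members did not move together in the GOF adrenals. In females Axin2, Tcf7 and Tnfrsf19 rose, Lef1, Nkd1, Notum and Apcdd1 fell, and Nkd2 and Sp5 did not pass the test. In males the same 3 genes rose, the same 4 fell, Nkd2 fell as well, and Sp5 did not pass. By edgeR's quasi-likelihood test with a threshold of 0.05 on the p-value adjusted by Benjamini-Hochberg over all genes, 7 of 9 members were called in females, where 39.6% of all tested genes were called. Of these, 3 were higher and 4 lower, beside 19.0% and 20.6% of all genes. In males 8 of 9 were called beside 36.9% of all genes, 3 higher and 5 lower beside 15.2% and 21.8%. The CPM ranges of GOF and control were apart for 7 members in females (37.8% of all genes) and for 6 in males (33.1%). The median log2 fold change of the 9 members was −0.60 in females and −0.80 in males, against 0.052 and 0.0071 over all tested genes. Without the 3 libraries with kidney or liver transcripts, 6 members were called in females and 7 in males, with 3 higher in each sex; Lef1 in females then had a log2 fold change of −1.002 with an adjusted p of 0.0799 and Nkd2 in males one of −0.76 with 0.106, while 24.1% and 25.7% of all genes were called. The glands were sequenced whole, so fewer cells of a type and less RNA per cell cannot be told apart in any of these differences.

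**Figure D1:**
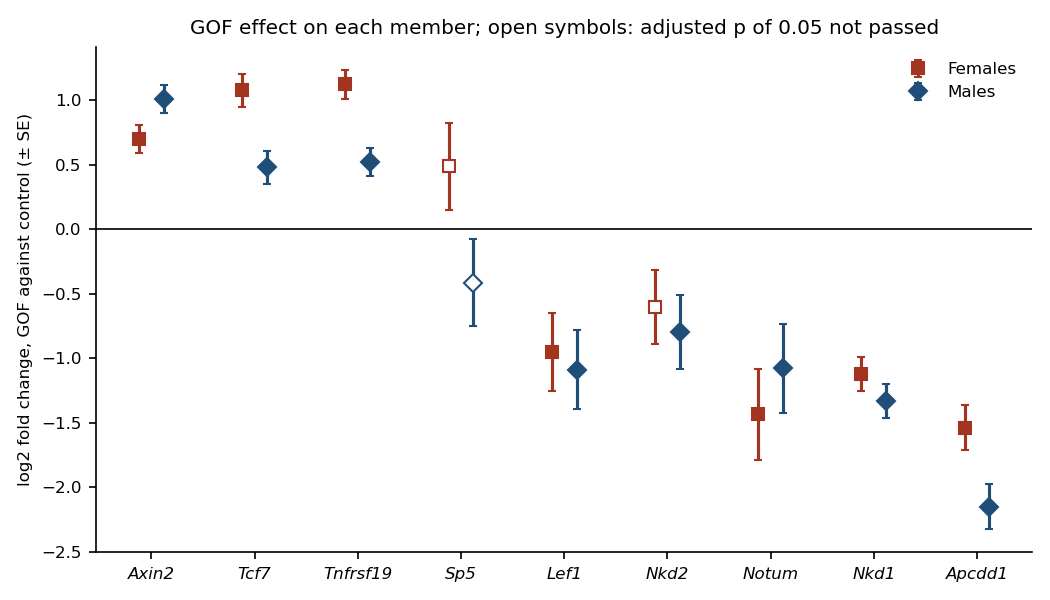
The log2 fold change of GOF against control (vertical axis) for each of the 9 members, females as squares and males as diamonds, with bars of 1 SE from edgeR's quasi-likelihood fit on 4 libraries per group; open symbols did not pass an adjusted p of 0.05. Axin2, Tcf7 and Tnfrsf19 lie above 0 in both sexes, and Lef1, Nkd2, Notum, Nkd1 and Apcdd1 below it, down to −2.15 for Apcdd1 in males.

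Axin2 (ENSMUSG00000000142, GRCm38 chromosome 11, 108920349 to 108950783, plus strand) encodes the scaffold of the complex that marks β-catenin for destruction, and is the feedback inhibitor most often used as a readout of the pathway. Its levels were 45.7, 43.6, 47.5 and 55.6 CPM in the female controls and 79.7, 67.7, 80.1 and 84.5 CPM in female GOF. In males they were 73.4, 75.1, 77.8 and 93.3 CPM in controls and 148, 139.5, 173 and 182 CPM in GOF. All GOF libraries lay above all controls of their sex, but the female GOF libraries lay within or near the range of the male controls. In females this gave a log2 fold change of 0.70 ± 0.108 (SE; 1.62-fold, adjusted p = 0.000162), and in males one of 1.01 ± 0.108 (2.01-fold, adjusted p = 6.07e-06). The difference between these effects, male minus female, was 0.31 ± 0.151 on the log2 scale and did not pass the test (adjusted p = 0.27). Antisense Gm11670 covers 3.8% of the exonic bases of Axin2 and had 1 to 94 counts, at most 1.34% of the sum of both genes in a library.

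Nkd1 (ENSMUSG00000031661, chromosome 8, 88521354 to 88594884, plus strand) and Nkd2 (ENSMUSG00000021567, chromosome 13, 73818534 to 73847631, minus strand) encode the NAKED CUTICLE proteins, which bind Dishevelled and dampen the signal inside the cell. Unlike Axin2, Nkd1 fell. It measured 57.4, 41.7, 48.3 and 67.6 CPM in female controls against 23.0, 25.9, 24.6 and 25.3 CPM in female GOF. The male controls held 86.4, 81.0, 76.2 and 96.3 CPM and the male GOF libraries 40.5, 33.9, 31.2 and 29.5 CPM. The lowest control lay above the highest GOF library in both sexes, and the 4 female GOF libraries differed least among the 4 groups. Expressed as log2 fold change with its SE, GOF females stood at −1.12 ± 0.134 (adjusted p = 2.08e-05) and GOF males at −1.33 ± 0.134 (adjusted p = 3.65e-06) against their controls. Nkd2 was far lower, at 2.48, 1.97, 2.28 and 1.94 CPM in female controls and 1.29, 2.06, 1.37 and 0.972 CPM in female GOF. In males it measured 2.55, 4.45, 3.80 and 5.60 CPM in controls and 2.49, 1.43, 2.81 and 2.72 CPM in GOF. The ranges overlapped in both sexes, through female GOF 2 and through male control 1. In females this gave a log2 fold change of −0.60 ± 0.288 (SE; adjusted p = 0.111), and in males one of −0.80 ± 0.285 (adjusted p = 0.0395). The male call for Nkd2 was lost in 14 of 28 alternatives, among them the fits without male control 2, 3 or 4 or male GOF 1, 2 or 4, and the female value passed without female GOF 2 (−0.88, adjusted p = 0.0341).

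Notum and Apcdd1 act outside the cell. Notum (ENSMUSG00000042988, chromosome 11, 120653788 to 120661175, minus strand) encodes a secreted enzyme that removes the lipid WNT proteins need to bind Frizzled. It measured 3.72, 1.91, 1.39 and 4.32 CPM in female controls and 0.965, 0.962, 1.31 and 0.944 CPM in female GOF. In males the controls held 5.88, 6.53, 4.02 and 4.35 CPM and the GOF libraries 2.55, 1.72, 3.71 and 1.84 CPM. The ranges did not overlap, but female control 3 and female GOF 3 were nearly level, as were male control 3 and male GOF 3. Expressed as log2 fold change with its SE, GOF females stood at −1.44 ± 0.354 (adjusted p = 0.00512) and GOF males at −1.08 ± 0.344 (adjusted p = 0.0231) against their controls. The male call was lost without male control 2 (adjusted p = 0.0647), male GOF 2 (0.0619) or male GOF 4 (0.0645), and with the range of the number in the library's name as a covariate (−1.11, adjusted p = 0.0535). The female call held by limma on log2(FPKM + 1) with a filter on low values. It was lost by the same limma fit without that filter (−0.66, adjusted p = 0.0519). This scale understates changes of low genes with or without the filter. Antisense genes share exonic sequence with Notum: Notumos covers 29.4% of its exonic bases and had 0 to 18 counts, and Myadml2os covers 8.72% and had 0 to 6. The strand setting of the counting is not given in the sources used here. Reads of Notum and of these antisense genes therefore cannot be told apart. The Notumos counts were at most 13.2% of the sum of both genes in a library. Such shares of the counts, here and for Axin2, do not bound the reads that fell on shared bases.

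Apcdd1 (ENSMUSG00000071847, chromosome 18, 62922231 to 62961179, plus strand) encodes a membrane glycoprotein that inhibits WNT signalling at the cell surface. In this fit it had the log2 fold change farthest from 0 of the 9 members in each sex. The female controls held 59.8, 41.6, 47.5 and 70.1 CPM and the female GOF libraries 16.6, 17.9, 20.6 and 20.3 CPM. In males the controls held 70.8, 80.0, 73.6 and 73.0 CPM, and the GOF libraries 22.3, 12, 16.1 and 16.7 CPM. The groups were far apart in both sexes, and the GOF libraries of females and males overlapped. In females this gave a log2 fold change of −1.54 ± 0.175 (SE; 2.91-fold lower, adjusted p = 1.37e-05), and in males one of −2.15 ± 0.178 (4.43-fold lower, adjusted p = 9.43e-07), and both calls held in 28 of 28 alternatives. The 2 effects differed by −0.61 ± 0.242, which did not pass the test (adjusted p = 0.173).

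The transcription factors among the members split in both sexes: Tcf7 rose and Lef1 fell. Both encode HMG-box factors that carry β-catenin to DNA, and both are also known as genes of T lymphocytes. Tcf7 (ENSMUSG00000000782, chromosome 11, 52252371 to 52283014, minus strand) measured 40.1, 30.6, 34.5 and 41.5 CPM in female controls and 77.1, 71.9, 81.8 and 78.1 CPM in female GOF. In males it measured 81.0, 63.5, 78.2 and 99.8 CPM in controls and 126, 119, 104 and 99.6 CPM in GOF. The female groups were well apart, while male control 4 lay level with male GOF 4. Expressed as log2 fold change with its SE, GOF females stood at 1.07 ± 0.127 (adjusted p = 1.87e-05) and GOF males at 0.48 ± 0.125 (adjusted p = 0.00813) against their controls. The effects differed by −0.60 ± 0.177 (male minus female), which missed the threshold (adjusted p = 0.0725) but passed it by DESeq2 (−0.56, adjusted p = 0.0382) and without male control 2 (−0.70, adjusted p = 0.0297).

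Lef1 (ENSMUSG00000027985, chromosome 3, 131110471 to 131224356, plus strand) measured 8.38, 8.49, 8.99 and 10.1 CPM in female controls and 2.75, 8.06, 4.15 and 3.60 CPM in female GOF. The male controls held 11.1, 10.04, 12.3 and 11.5 CPM and the male GOF libraries 4.43, 8.72, 3.86 and 4.11 CPM. In each sex 1 GOF library, number 2 in both, stood near the controls while the other 3 were far below, and the ranges did not overlap. In females this gave a log2 fold change of −0.95 ± 0.304 (SE; adjusted p = 0.0219), and in males one of −1.09 ± 0.304 (adjusted p = 0.0116). The female call was lost without female GOF 1 (adjusted p = 0.0638) or female GOF 4 (0.0574). Antisense Gm43352 covers 13.7% of the exonic bases of Lef1 and had 0 to 6 counts.

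Male GOF 2 also held the most RNA of T lymphocyte genes. The summed level of 11 such genes was 25.3, 75.4, 11.9 and 15.3 CPM in male GOF 1 to 4, against 5.17 to 8.46 in female controls, 7.95 to 10.3 in female GOF and 7.78 to 12.3 in male controls. Of the 11 genes, 5 were called higher in male GOF against control and 1 in female GOF, none lower, beside 15.2% and 19.0% of all genes called higher. In female GOF 2 Lef1 was 8.06 CPM and the sum of the T lymphocyte genes 8.91 CPM. Without male GOF 2, Lef1 in males had a log2 fold change of −1.46 (adjusted p = 0.00134) and Tcf7 one of 0.43 (adjusted p = 0.0295). The part of lymphocyte RNA in the level of Lef1 and Tcf7 was not tested.

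**Figure D2:**
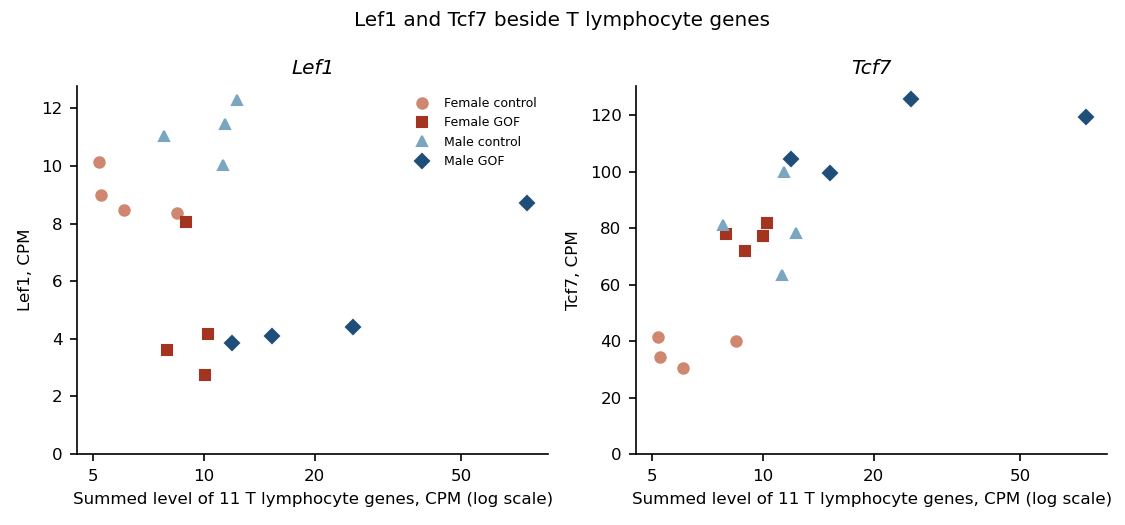
Lef1 (left) and Tcf7 (right) in CPM against the summed CPM of 11 T lymphocyte genes on a log axis, 1 symbol per library (4 per group). Male GOF 2 lies alone at 75.4 CPM on the horizontal axis; female GOF 2, with Lef1 at 8.06 CPM, lies at 8.91.

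Sp5 (ENSMUSG00000075304, chromosome 2, 70474923 to 70477729, plus strand) encodes a zinc-finger repressor that is a direct β-catenin target in many tissues and limits other targets. It was low in all groups and did not pass the test in either sex. The female controls held 3.56, 1.52, 3.02 and 2.64 CPM and female GOF 2.81, 3.09, 4.87 and 4.29 CPM. In males the controls held 3.02, 4.62, 2.75 and 2.75 CPM and GOF 2.94, 3.66, 2.03 and 1.21 CPM. The ranges overlapped in both sexes. Expressed as log2 fold change with its SE, GOF females stood at 0.49 ± 0.338 (adjusted p = 0.27) and GOF males at −0.42 ± 0.338 (adjusted p = 0.355) against their controls, and the 2 values differed by −0.90 ± 0.478 (adjusted p = 0.305). Without the 3 libraries with kidney or liver transcripts, Sp5 stood at 0.85 in females (adjusted p = 0.153) and −0.21 in males (adjusted p = 0.694).

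Axin2, which rose, and Sp5, which did not pass the test, are shown with the 250 bases before their RefSeq start (GRCm38.p6), because their promoters differ in the letters that TCF and LEF factors are known to bind. Capitals mark matches on either strand to the motif CTTTGAA, to the closely related letters CTTTGAT, to the form written CTTTGTA or to the remaining form searched, CTTTGTT. The 4 motifs differ in their last letters, and no matches overlap in these stretches. The stretches are chr2:70474673-70474922 and chr11:108920099-108920348, both on the plus strand.
Sp5: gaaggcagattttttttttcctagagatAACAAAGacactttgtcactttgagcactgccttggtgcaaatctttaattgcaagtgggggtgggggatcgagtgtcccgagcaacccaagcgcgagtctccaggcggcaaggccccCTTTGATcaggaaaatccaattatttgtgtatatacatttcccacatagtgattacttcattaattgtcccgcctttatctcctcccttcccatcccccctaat
Axin2: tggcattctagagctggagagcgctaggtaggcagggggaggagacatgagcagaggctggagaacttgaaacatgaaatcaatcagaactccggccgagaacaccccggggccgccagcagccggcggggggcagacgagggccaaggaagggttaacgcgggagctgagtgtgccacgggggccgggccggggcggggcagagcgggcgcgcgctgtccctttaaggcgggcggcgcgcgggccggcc
Sp5 held 2 matches, CTTTGTT on the minus strand and CTTTGAT on the plus strand, 222 and 104 bases before the start. In the window of 300 bases from 250 before to 50 after the start, 16.9% of 32851 RefSeq promoters held at least 1 match and 1.94% held 2 or more. The windows of Axin2, Nkd1 and Nkd2 and both windows of Tcf7 held no match. Lef1 had 1 match in 1 of its 4 windows (CTTTGTA) and Tnfrsf19 1 match in 1 of its 2 windows (CTTTGAT). A match is a description of these letters only, and no binding was measured. Windows were listed for 7 of the 9 members; the other 2 are Notum and Apcdd1.

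Tnfrsf19 (ENSMUSG00000060548, chromosome 14, 60963875 to 61046490, minus strand) encodes TROY, a receptor of the TNF receptor family that is a β-catenin target in stem cell compartments. The female controls held 141, 162, 153 and 165 CPM and female GOF 319, 301, 396 and 336 CPM. In males the controls held 108, 96.2, 92.8 and 109.8 CPM and GOF 147, 170.2, 116 and 149 CPM. Every GOF library lay above every control of its sex, and every female library lay above the male libraries of the same genotype. In females this gave a log2 fold change of 1.12 ± 0.112 (SE; 2.17-fold, adjusted p = 4.86e-06), and in males one of 0.52 ± 0.111 (1.43-fold, adjusted p = 0.00212). Tnfrsf19 was the 1 of 9 members whose GOF effect was called different between the sexes, beside 4.21% of all genes (1.59% higher and 2.61% lower): male minus female was −0.60 ± 0.157 (adjusted p = 0.0433). That call was lost in 21 of 27 alternatives and in 13 of the 16 fits that left out 1 library, with the difference between −0.66 and −0.48 and adjusted p between 0.0144 and 0.235; it held without female GOF 1, female GOF 2 or male GOF 2.

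**Figure D3:**
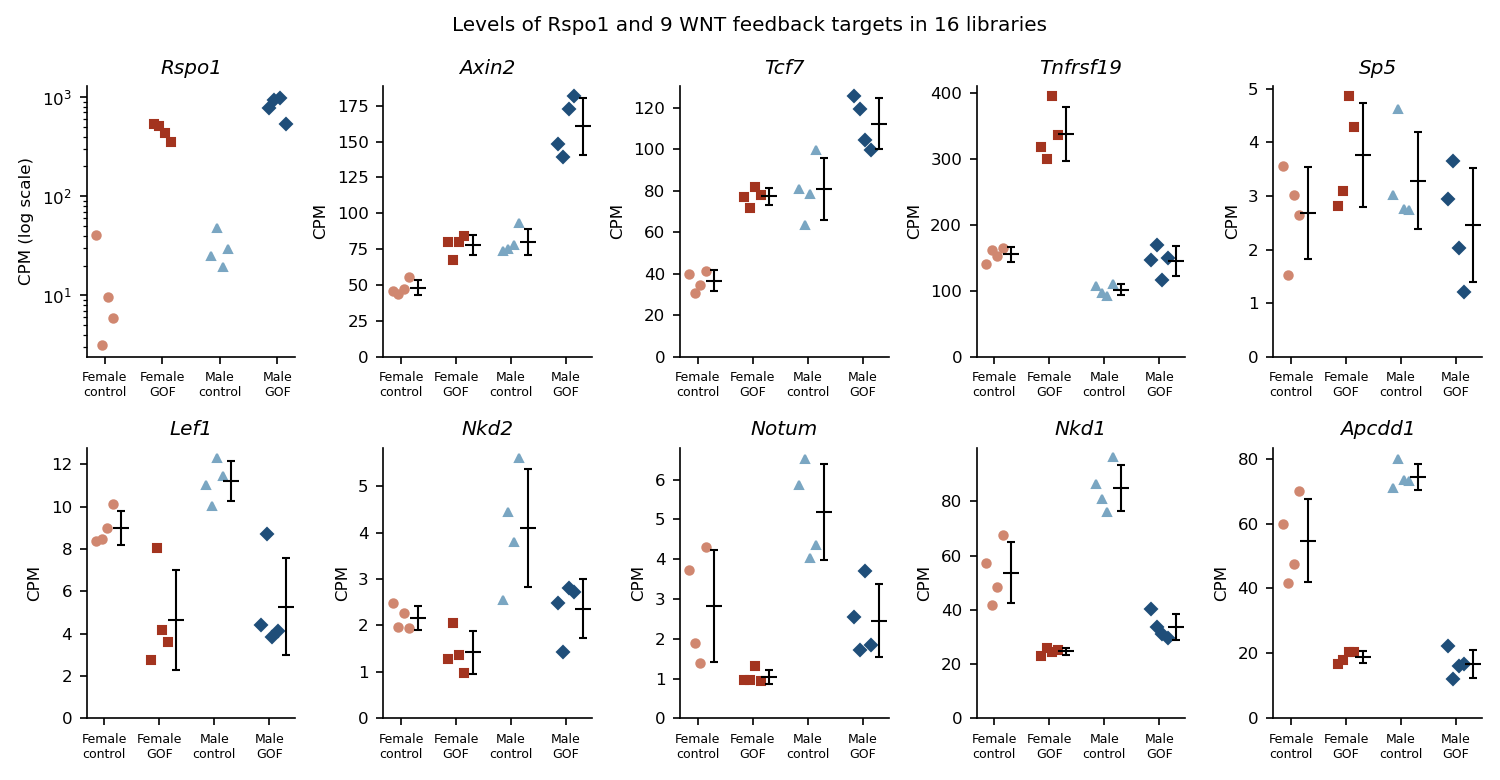
CPM of Rspo1 (log axis) and of the 9 members (linear axes from 0) in the 16 libraries, 1 symbol per library, with the mean and 1 SD of each group of 4 drawn beside the members. Axin2, Tcf7 and Tnfrsf19 in the upper row are higher in GOF than in control of the same sex, and the 5 genes of the lower row have lower group means in GOF.

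The sexes were compared next within each genotype. In controls Axin2, Tcf7, Nkd1 and Nkd2 were higher in males and Tnfrsf19 was lower. These were 5 of 9 members, beside 23.4% of all tested genes, with 4 higher (13.5% of all genes) and 1 lower (9.89%). The log2 difference, male minus female, was 0.73 ± 0.108 (SE) for Axin2 (adjusted p = 0.000248), 1.14 ± 0.127 for Tcf7 (adjusted p = 2.5e-05) and 0.66 ± 0.133 for Nkd1 (adjusted p = 0.00262). Tnfrsf19 differed by −0.61 ± 0.112 (adjusted p = 0.00134). Nkd2 differed by 0.92 ± 0.286 (adjusted p = 0.0309), a call lost without female control 2, 3 or 4 and without male control 2 or 4. The value for Notum was 0.87 (adjusted p = 0.077) and that for Apcdd1 0.44 (adjusted p = 0.0722). Both passed without female control 4 (1.15 and 0.58, adjusted p 0.0387 and 0.0284), and Apcdd1 also without male GOF 1 (adjusted p = 0.0487). Lef1 and Sp5 differed by 0.32 and 0.29 (adjusted p 0.474 and 0.572). The CPM ranges of the sexes were apart for 6 members, beside 25.3% of all genes. Without the 3 libraries with kidney or liver transcripts 4 members were called, 3 higher and 1 lower, beside 8.7% of all genes; Nkd2 was the one lost (1.03, adjusted p = 0.148). Rspo1 itself was 1.03 ± 0.573 higher on the log2 scale in male controls, with an adjusted p of 0.205, and 2.28 higher without female control 1 (adjusted p = 0.00108). Over 28 alternatives this Rspo1 difference ran from 0.28 to 2.43 and passed in 4.

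In GOF, Axin2, Tcf7, Nkd1 and Notum were higher in males and Tnfrsf19 was lower. This was again 5 of 9 members, beside 29.6% of all genes, 4 higher (13.3%) and 1 lower (16.3%). The log2 difference was 1.04 ± 0.108 (SE) for Axin2 (adjusted p = 1.09e-05), 0.54 ± 0.125 for Tcf7 (adjusted p = 0.00467) and −1.21 ± 0.112 for Tnfrsf19 (adjusted p = 4.2e-06). Nkd1 differed by 0.45 (adjusted p = 0.0186) and Notum by 1.23 (adjusted p = 0.0161). The Nkd1 call was lost without female GOF 1 or male GOF 1, and the Notum call without male GOF 3. Nkd2 differed by 0.73 (adjusted p = 0.0704) and passed without female GOF 2 or male GOF 2. The values for Lef1, Apcdd1 and Sp5 were 0.18, −0.17 and −0.61 and did not pass (adjusted p 0.688, 0.497 and 0.19). Ranges were apart for 5 members, beside 29.1% of all genes. Without the 3 libraries, which are all controls, 5 members were called beside 27.3% of all genes. Rspo1 was 0.81 ± 0.557 higher in male GOF (adjusted p = 0.296), and passed with only the groups compared in the fit (0.81, adjusted p = 0.0161) and without the 3 libraries with kidney or liver transcripts (0.81, adjusted p = 0.0174). The number in the library's name falls into ranges, of which the sexes share only the lowest. With the range as a covariate, 2 members were called in each comparison of the sexes, beside 7.2% of all genes in controls and 7.34% in GOF. In controls these were Axin2 and Tcf7, and the calls of Nkd1 (0.67, adjusted p = 0.0683), Nkd2 (0.78, adjusted p = 0.188) and Tnfrsf19 (−0.47, adjusted p = 0.0911) were lost. In GOF they were Axin2 and Tnfrsf19, and the calls of Tcf7 (0.46, adjusted p = 0.191), Nkd1 (0.48, adjusted p = 0.206) and Notum (0.98, adjusted p = 0.36) were lost, while Rspo1 turned to −0.51 (adjusted p = 0.746).

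Rspo1 and the members were also set side by side in single libraries. Male GOF 4, with the lowest Rspo1 of its group at 535 CPM, had the highest Axin2, at 182 CPM, and the lowest Tcf7, Nkd1 and Sp5, at 99.6, 29.5 and 1.21 CPM. Male GOF 3, with the highest Rspo1 of its group at 972 CPM, came next in Axin2 at 173 CPM. Female GOF 4, the lowest of its group in Rspo1 at 354 CPM, also had the highest Axin2, at 84.5 CPM. Female control 2 was lowest of its group in both Rspo1, at 3.196 CPM, and Axin2, at 43.6 CPM. Axin2 and Tcf7 in female GOF overlapped the male controls (67.7 to 84.5 against 73.4 to 93.3 CPM for Axin2, and 71.9 to 81.8 against 63.5 to 99.8 CPM for Tcf7), although Rspo1 was 354 to 532 CPM in the former and 19.4 to 48.3 in the latter. In the fallen genes Nkd1 and Apcdd1, by contrast, every female GOF library lay below every male control. No test compared female GOF with male control, since sex and genotype cannot be told apart there.

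**Figure D4:**
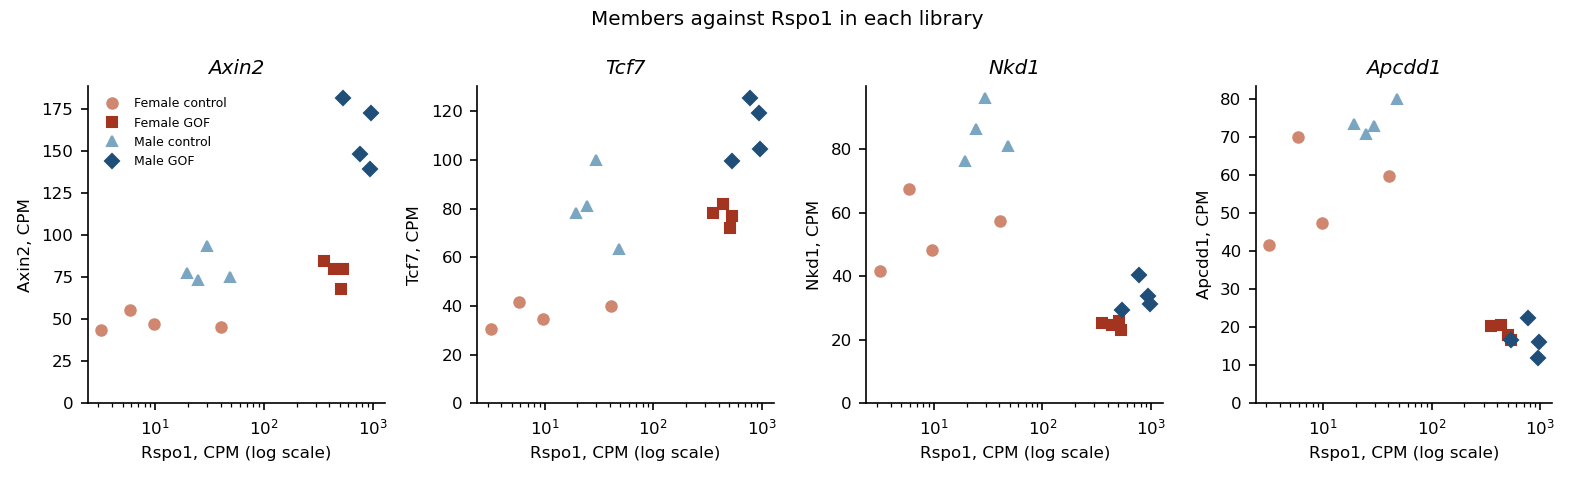
Axin2, Tcf7, Nkd1 and Apcdd1 (CPM, linear axes) against Rspo1 (CPM, log axis), 1 symbol per library and 4 per group. Groups separate along the horizontal axis by genotype, and in male GOF the library with the lowest Rspo1 (535 CPM) has the highest Axin2 (182 CPM) and the lowest Tcf7 (99.6 CPM). The male GOF library with the highest Rspo1 (972 CPM) comes next in Axin2 (173 CPM).

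Compared per length, as FPKM, the members changed places between genotypes. In female controls Tnfrsf19 led with 67.7 ± 5.06 FPKM (SD, n = 4), above Axin2 with 27.3 ± 3.49, Apcdd1 with 22.6 ± 5.74, Nkd1 with 18.2 ± 4.19 and Tcf7 with 16.8 ± 2.65; the ranges of neighbours from Axin2 to Tcf7 overlapped. Lef1 followed at 3.56 ± 0.375, then Notum at 1.72, Sp5 at 1.24 and Nkd2 at 1.11, whose neighbouring ranges overlapped. In female GOF the order was Tnfrsf19 at 153 ± 17.1, Axin2 at 46.1 ± 4.10 and Tcf7 at 36.8 ± 1.61 FPKM, each apart from the next, with Nkd1 at 8.67 and Apcdd1 at 8.08 below them and overlapping. In male controls Axin2, Tnfrsf19, Tcf7, Apcdd1 and Nkd1 formed a chain of overlapping ranges, from 45.9 ± 6.45 down to 28.9 ± 3.49 FPKM. In male GOF Axin2 stood alone at 99.9 ± 14.4 FPKM, above Tnfrsf19 at 69.2 ± 9.21 and Tcf7 at 56.1 ± 5.06, which overlapped. Nkd1 at 12.4 ± 1.57 and Apcdd1 at 7.54 ± 1.85 lay below these, apart from each other. The lowest places, below 5 FPKM in each group, were held by Lef1, Notum, Sp5 and Nkd2.

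Ratios within a library do not depend on the scaling between libraries. In FPKM, Axin2 over Nkd1 was 1.34 to 1.76 in female controls and 1.43 to 1.72 in male controls, so that the sexes overlapped. In GOF it was 4.41 to 5.85 in females and 6.16 to 10.4 in males. Axin2 over Apcdd1 was 1.05 to 1.45 and 1.29 to 1.76 in the controls of females and males, against 5.23 to 6.62 and 9.15 to 16 in GOF. Tcf7 over Lef1 was 4.17 to 5.53 in female and 7.32 to 10.1 in male controls, and 10.3 to 32.5 and 15.8 to 32.9 in GOF, where the lowest value of each sex came from library 2. Tnfrsf19 over Axin2 separated the sexes: it was 2.28 to 2.86 in female controls and 3.05 to 3.79 in female GOF, but 0.903 to 1.13 in male controls and 0.516 to 0.936 in male GOF. These ratios show unequal change of the genes in each pair and carry no test.

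**Figure D5:**
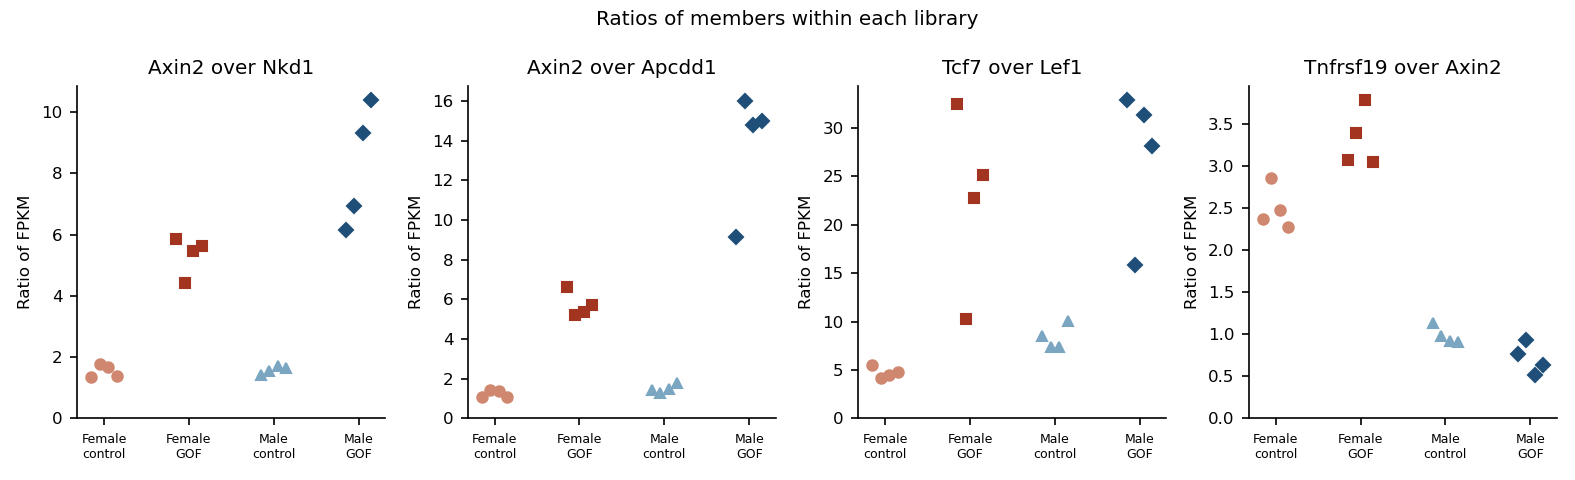
Ratios of the FPKM of 2 members within each library (linear axes from 0), 1 symbol per library and 4 per group: Axin2 over Nkd1, Axin2 over Apcdd1, Tcf7 over Lef1, and Tnfrsf19 over Axin2. Axin2 over Nkd1 is at most 1.76 in all control libraries and at least 4.41 in all GOF libraries, and Tnfrsf19 over Axin2 is at least 2.28 in all female libraries and at most 1.13 in all male libraries.

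Other genes of the pathway were counted from lists. Of 18 further WNT targets 14 were tested. In females 3 rose, 7 fell and 4 did not pass, with a median log2 fold change of −1.01, beside 19.0% of all genes higher and 20.6% lower. In males 1 rose, 9 fell and 4 did not pass, with a median of −0.99, beside 15.2% and 21.8%. Lgr5, an R-spondin receptor, had the lowest values, which were −3.68 ± 0.354 (SE) for females, with an adjusted p of 4.48e-06, and −4.08 ± 0.357 for males, with 1.45e-06. Its relative Lgr6 followed with −2.65 (adjusted p = 0.000749) and −3.29 (adjusted p = 0.000138). Myc, the proliferation factor, rose by 0.98 (adjusted p = 0.000594) and 0.75 (adjusted p = 0.00424), and the adhesion receptor Cd44 rose by 0.88 in females (adjusted p = 0.0145) with a value of −0.20 in males (adjusted p = 0.585).

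Of the 24 genes of the β-catenin machinery, 6 rose and 2 fell in females (median 0.16), beside 39.6% of all genes called in either direction, and 4 rose and 4 fell in males (median 0.05), beside 36.9%. Ctnnb1, which encodes β-catenin, had 0.09 in females and 0.13 in males (adjusted p 0.322 and 0.181). The lowest values were those of Apc2, a relative of APC of the destruction complex, at −1.90 in females (adjusted p = 0.000672) and −2.41 in males (adjusted p = 9.41e-05). Tle1, a corepressor of the TCF factors, had −1.25 and −1.39 (adjusted p 0.000121 and 4.24e-05). Its relative Tle3 rose by 0.52 and 0.43 (adjusted p 0.0109 and 0.0317), Tle2 by 0.84 in males (adjusted p = 0.0451) with a value of −0.29 in females (adjusted p = 0.489), and Dvl2, a Dishevelled gene, by 0.46 in females (adjusted p = 0.00177) with a value of −0.05 in males (adjusted p = 0.703).

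The genes whose levels were most like each member over the 16 libraries, by Pearson r of log2 CPM among 13495 genes, are given as a description. Ccdc9b (r = 0.976) and Serinc5 (0.969) were most like Axin2, and Cabin1 (0.963) and Fkbp10 (0.962) most like Tcf7. Smarcc1 (0.977) and Mybbp1a (0.974) were nearest to Tnfrsf19. Among the fallen genes, Nkd1 was nearest to Nbl1 (0.985) and Papln (0.978), Apcdd1 to Abcd2 (0.972) and Cap2 (0.971), and Lef1 to Wnt11 (0.937) and Ffar2 (0.927). Notum was nearest to Cdc14b (0.926) and Pdgfa (0.922), Nkd2 to Dmxl2 (0.948) and Syne1 (0.944), and Sp5, with the weakest likeness, to Sept6 and Dhrs1 (0.811 each). The libraries share their groups, so that any gene with similar group means scores high.

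Markers of other cell types moved with genotype beside the members. The summed level of 8 genes of the adrenal medulla was 4724 to 10810 CPM in female and 7553 to 11240 CPM in male controls, and 194 to 763 CPM and 391 to 878 CPM in GOF, and 8 of 8 were called lower in each sex. A sum of 9 genes of the capsule and fibroblasts went from 1003 to 1200 CPM in female controls to 254 to 613 CPM in female GOF, and from 1296 to 4027 CPM in male controls to 598 to 747 CPM in male GOF, with 8 and 9 of 9 called lower. Schwann and sustentacular genes (7 of 7 lower in each sex) went from 28.0 to 93.2 CPM to 7.95 to 11.8 CPM in females, and from 48.8 to 257 CPM to 9.74 to 11.8 CPM in males. Of 7 adipocyte genes, 6 were called lower in females and 7 in males. Over all genes, 20.6% were called lower in females and 21.8% in males.

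Markers of the zona glomerulosa, the outer zone where canonical WNT signalling is known to act, were 941 to 1143 CPM in female GOF against 1121 to 1234 CPM in controls, with 1 of 6 higher and 3 lower. That sum was mostly Wnt4 (group means of 349 CPM in female controls and 563 CPM in female GOF) and Dab2 (437 and 374 CPM), while Cyp11b2, the aldosterone synthase gene, was 8.72-fold lower in female GOF, the angiotensin receptor gene Agtr1b 5.78-fold and Vsnl1 6.41-fold (adjusted p 6.75e-05, 1.6e-07 and 1.19e-06), and the median log2 fold change of the 6 genes was −1.99. In males the sum was 434 to 575 CPM against 1108 to 1568 CPM, with 6 of 6 lower and a median of −2.13. The X-zone sum of 3 genes was 5122 to 7545 CPM in female controls and 50.9 to 109.5 CPM in female GOF, against 41.1 CPM or less in males. Macrophage genes rose in 2 of 8 cases in females and 4 of 8 in males, with 1 lower in each, and endothelial genes in 0 and 2 of 7, beside 19.0% and 15.2% of all genes called higher. No listed marker outside the kidney list was at 0 in every library of a group. Between the sexes in controls, 6 of 9 capsule and fibroblast genes and 6 of 8 macrophage genes were higher in males. So were 4 of 7 Schwann and sustentacular, 2 of 7 adipocyte, 1 of 6 zona glomerulosa, 1 of 5 zona fasciculata and 1 of 11 T lymphocyte genes. Lower were 3 of 3 X-zone and 1 of 6 cortex genes, beside 13.5% of all genes higher and 9.89% lower. No medulla or endothelial gene was called. Between the sexes in GOF, 8 of 11 T lymphocyte, 7 of 7 endothelial, 6 of 8 macrophage and 5 of 9 capsule and fibroblast genes were higher in males. So were 4 of 5 zona fasciculata genes and 1 of 6 zona glomerulosa genes, with 2 of the latter list lower. Lower were 4 of 6 cortex, 3 of 7 adipocyte and 1 of 3 X-zone genes, beside 13.3% of all genes higher and 16.3% lower. No medulla or Schwann and sustentacular gene was called. The part of these cell types in the levels of the members was not tested.

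The library names carry a number whose meaning the labels do not state and which falls into separate ranges. In females the lower range held 1 control and 1 GOF and the next 3 controls and 2 GOF; the number of female GOF 4 lies apart, with no control near it, and that library is left out of these differences. In males the lower range held 3 controls and 2 GOF and the upper 1 and 2. Within both ranges of each sex, every called member had the direction it had in the whole group. Apcdd1 in males had log2 differences of −2.19 and −2.15 and Axin2 0.93 and 0.92 within the 2 ranges. The male effects of Tcf7 (0.73 and 0.03) and Tnfrsf19 (0.68 and 0.26) differed more between the ranges, and Sp5 in females was −0.34 in 1 range and 0.74 in the other. Ranges with 1 library per genotype have no replicate check.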

How the data were processed

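RNA of individual adrenals (RNA integrity number of at least 7.0, per the labels) was sequenced from NEBNext Ultra libraries as paired 150 bp reads, per the labels. Counts per Ensembl gene were deposited by the authors as whole reads, not normalized. The deposited FPKM values are the counts scaled by 1 length per gene and the library total, as a check of the files showed. The submitters' processing notes name Bowtie2 2.2.3, TopHat2 2.0.12, HTSeq 0.6.1 and DESeq 1.18.0; the genome build, annotation and strand setting are not given in the sources used here. Symbols come from a table of gene names that matched 54723 of the 54838 identifiers and gave the members the symbols of GENCODE M21; coordinates come from GENCODE M21 (GRCm38) and promoters from RefSeq (GRCm38.p6).

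Replicate numbers follow the accession order. Counts were tested with edgeR 4.0.16 in R 4.3.3 (filterByExpr, TMM, robust quasi-likelihood fit, 1 mean per group, 12 residual degrees of freedom, Benjamini-Hochberg over 18214 genes, threshold 0.05), the source of every adjusted p unless another tool is named. SE was computed from the fold change and F. No library was a copy of another: replicates differed by a chi-square of 29.5 or more per degree of freedom (24 pairs). Each library was taken as another mouse, so the spread was read as that between animals.

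The members and lists were chosen with earlier results of these data known. The rule for named genes took all members, for the other WNT targets and the β-catenin machinery per list and sex the 2 highest and 2 lowest called log2 fold changes with a mean of at least 1 CPM, and the 2 most alike genes per member (prior count 2); markers are given as sums. Ctnnb1 and the zona glomerulosa genes were named outside this rule, after their values were seen. Alternatives were DESeq2 1.42.0, other scaling and filters, limma 3.58.1 on log2 FPKM (pseudocount 1 or 0.1), the range of the number in the library's name as a covariate, a size limit of 1 on the log2 fold change, and libraries left out. The fit was also run on simulated data, whose outcome is not given here. Plots used Python 3.11.15 and matplotlib 3.10.9.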

Additional observations from a re-analysis of the deposited data

Results flagged for a closer look

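In 3 of the 40 sets of 4 libraries (10 genes in 4 groups), 1 library stood apart by more than Dixon's critical value for 4 samples, where chance flags about 1 set in 20. Lef1 was 8.72 CPM in male GOF 2 against 4.43 in the nearest other library, a gap of 0.883 of the range. Notum was 1.31 CPM in female GOF 3 against 0.965 (gap 0.942). Sp5 was 4.62 CPM in male control 2, the library with liver transcripts, against 3.02 (gap 0.857). The GOF effect on Tnfrsf19 differed between the sexes by −0.601 on the log2 scale, male minus female, by edgeR's interaction test (adjusted p = 0.0433), a call lost in 21 of 27 alternatives.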

How the results depend on the processing

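No paired analysis was possible because the labels give no replicate numbers. Over all alternatives, 1390 values of the 9 members and Rspo1 were compared with the main fit. Of these, 1290 kept their direction and side of the threshold, 71 lost the call, 17 gained it and 12 reversed. The size limit cuts the main fit and refits nothing, so its values could lose a call but not reverse. In GOF against control no value reversed (533 of 560 kept their call). The count of called members was 5 in males with a log2 fold change of at least 1 (8 without this limit). Between the sexes it was 2 in controls and 2 in GOF with the covariate, in which female GOF 4 is alone at its level and adds nothing, and 1 and 3 with the size limit, against 5 and 5. For the interaction it was 2 by DESeq2 and 0 with RLE or upper-quartile factors, no filter, a floor of 10 counts per library, limma on log2(FPKM + 1) without a filter, the covariate, without the 3 libraries, or with the size limit, against 1. Leaving out 1 library gave 6 to 8 members in females, 6 to 8 in males, 4 to 6 between the sexes in controls, 4 to 6 in GOF and 0 to 1 for the interaction. Reversed values, none of them called: males against females in GOF, Rspo1 −0.51 with the covariate, and Lef1 without female GOF 1 or male GOF 2 (−0.16 to 0.60 with 1 library left out in turn); for the interaction, Notum −0.018 in both limma fits on log2(FPKM + 1), Rspo1 without female control 2 or 4 or male control 2 (−1.47 to 0.11), Lef1 without female GOF 2 or male GOF 3 (−0.465 to 0.30), and Nkd2 without female GOF 2 or male GOF 2 (−0.37 to 0.065). The cause was not tested. The share of all genes called changed by over 1.5 times in some fits. In females (39.6%) it was 17.6% without a filter, 18.3% by limma without a filter, 17.1% with the size limit and 24.1% without the 3 libraries; in males (36.9%) the first 3 of these gave 17.3%, 21.4% and 18.5%. Between the sexes in controls (23.4%) they gave 8.92%, 10.1% and 7.71%, the covariate 7.2%, leaving out the 3 libraries 8.7% and leaving out female control 3 14.3%. In GOF (29.6%) the values were 12.7%, 12.8% and 9.96%, and 7.34% with the covariate. For the interaction (4.21%) it ran from 0.924% without the 3 libraries to 7.86% by DESeq2. The 4 members with the lowest levels, Lef1, Nkd2, Notum and Sp5, had the largest standard errors in GOF against control; the part of depth in this was not tested.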
